A study of Mus musculus with 24 samples.

Results

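The 33 genes described here fold, modify or clear proteins in the endoplasmic reticulum (ER), or sense and answer unfolded protein there. They were taken as every non-control probe whose gene name is one of 33 listed members, which gave 62 of 56605 probes. All 33 genes, through 58 of these probes, passed the filter on dim probes, among 22383 genes tested in all. Each gene is represented by its brightest probe.

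The tissue was the inguinal (number 4) mammary gland of C57BL/6 females, freed of its lymph node. The 4 groups were mice with 2 R96C knock-in alleles of SOCS2, on day 18 of pregnancy (KI day 18, n = 5), wild-type mice on day 18 of pregnancy (WT day 18, n = 5), knock-in virgins of 8 weeks (KI virgin, n = 7) and wild-type virgins of 8 weeks (WT virgin, n = 7). SOCS2 is a feedback inhibitor of cytokine signalling through growth hormone and prolactin receptors, and the design asks how the allele affects gland development and function. Cy3-labelled cRNA of 24 separate mice was hybridised to 1-colour Agilent 60K mouse arrays, on 3 slides of 8 arrays that each held all 4 groups. The age of the pregnant mice is not given in the labels, so pregnancy and age cannot be told apart. The array does not read the substituted base, so genotypes rest on the labels.

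Secreted milk proteins and membrane receptors enter the secretory pathway through the ER. BiP (Hspa5) and GRP94 (Hsp90b1) hold nascent chains, calnexin and calreticulin hold glycoproteins, protein disulfide isomerases form disulfide bonds, and failed products are exported for degradation (ERAD). IRE1 (Ern1), PERK (Eif2ak3) and ATF6 sense unfolded protein: IRE1 splices Xbp1 mRNA, PERK phosphorylates eIF2alpha and thereby raises translation of Atf4, and ATF6 is cut to release a transcription factor. XBP1 is also known for its role in the secretory build-up of professional secretory cells. The arrays read total mRNA per probe and neither splicing, phosphorylation nor cleavage.

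The best known promoter element of this response is the ER stress response element (ERSE), which ATF6 and XBP1 read together with NF-Y. Promoter windows from RefSeq (build GRCm38.p6, 250 bases before to 50 bases after the start) were found for 29 of the 33 genes. Manf, Hyou1, Atf6 and Derl1 were not matched. The exact letters CCAAT and CCACG with any 9 bases between them, searched on both strands, occurred in the windows of 9 of these 29 genes (31.0%), and in 37 of all 27025 genes with a window (0.137%). The matches are shown because the genes that hold them include classical targets of the pathway, and the results below set their signals beside those of the other members. Each is written 5′ to 3′ on its own strand, with CCAAT and CCACG in capitals and the spacer in lower case.
Hspa5, chr2:34772025-34772043, plus strand: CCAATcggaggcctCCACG
Derl3, chr10:75893242-75893260, minus strand: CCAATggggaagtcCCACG
Creld2, chr15:88819520-88819538, minus strand: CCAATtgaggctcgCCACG
Hsp90b1 far match, chr10:86705638-86705656, minus strand: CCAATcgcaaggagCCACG
Hsp90b1 near match, chr10:86705533-86705551, plus strand: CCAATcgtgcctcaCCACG
Calr, chr8:84847075-84847093, plus strand: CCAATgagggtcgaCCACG
Canx, chr11:50325800-50325818, minus strand: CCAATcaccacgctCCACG
Pdia6, chr12:17266491-17266509, plus strand: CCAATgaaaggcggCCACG
Dnajc3, chr14:118937827-118937845, plus strand: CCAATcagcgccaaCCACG
Syvn1, chr19:6046532-6046550, plus strand: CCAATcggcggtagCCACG

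The outer letters are fixed by the search and the spacers between them differ. The Hspa5 match lies 65 to 47 bases before the start, and that of Syvn1 44 to 26 bases before it. The Hsp90b1 matches lie 212 to 194 and 107 to 89 bases before its start. The 250 bases upstream of 3 starts follow in the direction of transcription with the match in capitals. Hspa5 is shown as the sensor partner of the pathway, Derl3 as the gene with the largest rise below, and Hsp90b1 as the holder of 2 matches whose signal was not called. The 3 stretches are chr2:34771840-34772089 on the plus strand, chr10:75893148-75893397 on the plus strand and chr10:86705445-86705694 on the minus strand.
Hspa5: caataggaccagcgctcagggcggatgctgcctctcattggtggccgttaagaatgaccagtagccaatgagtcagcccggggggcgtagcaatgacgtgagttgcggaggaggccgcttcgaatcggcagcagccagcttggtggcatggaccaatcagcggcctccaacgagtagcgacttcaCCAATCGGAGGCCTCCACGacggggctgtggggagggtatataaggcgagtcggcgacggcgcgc
Derl3: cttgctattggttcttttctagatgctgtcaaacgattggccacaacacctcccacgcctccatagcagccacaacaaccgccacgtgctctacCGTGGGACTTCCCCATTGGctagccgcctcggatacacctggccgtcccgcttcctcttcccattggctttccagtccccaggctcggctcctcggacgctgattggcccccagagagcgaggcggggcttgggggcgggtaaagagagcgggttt
Hsp90b1: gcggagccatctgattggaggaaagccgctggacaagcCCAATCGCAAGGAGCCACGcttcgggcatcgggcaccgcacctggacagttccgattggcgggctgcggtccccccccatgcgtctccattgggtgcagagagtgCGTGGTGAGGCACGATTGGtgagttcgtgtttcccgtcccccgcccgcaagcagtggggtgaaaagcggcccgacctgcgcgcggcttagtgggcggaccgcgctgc

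A second form of the element (ERSE-II), the letters ATTGG and CCACG with any 1 base between them, occurred in 2 of the 29 genes (6.9%) and in 0.0444% of all genes with a window. It stood in Herpud1 (chr8:94386377-94386387, plus strand, 52 to 42 bases before the start) and in Dnajb11 (chr16:22857852-22857862, plus strand, from base 8 to base 18 of the transcript). The C/EBP-ATF response element letters TGATGCAA, which ATF4 is known to read, occurred in Chac1 and Herpud1, 2 of 29 genes (6.9%), against 1.03% of all genes. The core TGACGTGG of the unfolded protein response element (UPRE) occurred in 0 of 29 windows, against 0.714% of all genes. These matches did not overlap each other. No window of Xbp1, Trib3, Atf4 or Ddit3 held any of the 4 sets of letters in this stretch.

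Values below are log2 processed signal minus each array's 75th percentile, so 0 is the 75th percentile of the array. Between 33374 and 43055 of 59305 non-control spots were well above background on 23 arrays, and 57003 on the array of KI virgin mouse 376. The mean signal of its negative controls was 346.5, against 27.9 to 50.2 on the others. KI virgin mouse 198 stood apart by low luminal genes, with a mean log2 signal of -3.77, and KI day 18 mouse 184 by its 43055 spots. The mean of 7 muscle markers was 7.97 for mouse 198. It was also high for WT virgin mouse 320 (7.10) and for KI day 18 mice 211 (6.34) and 184 (5.10). No spot was saturated, and the probe used for each of the 33 genes was well above background on all 24 arrays. On the array of mouse 376, where most spots carry that flag, it says little about dim genes. Calls are an adjusted p under 0.05 in limma over all genes. Because 1 estimate of the spread is shared by all groups, the array of mouse 376 also touches calls between wild-type mice, and counts are therefore given with and without it.

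On day 18 of pregnancy, 14 of the 33 genes were higher than in virgins in KI mice and 11 were higher in WT mice, and none was lower in either. Xbp1, the pseudokinase gene Trib3 and the degradation channel gene Derl3 led both comparisons. The chaperone genes Hsp90b1, Calr and Canx and the isomerase genes Pdia3 and Pdia6 were among those not called in either. The share of all genes called higher was 22.9% in KI and 20.9% in WT mice. The share called lower was 20.3% in KI and 20.9% in WT mice. Counts by role and by list below are to be read against these shares. The median log2 difference over the 33 genes was 0.43 in KI mice, against 0.05 over all genes, and 0.22 in WT mice, against 0.01 over all genes. Without the array of mouse 376 the KI median of the 33 genes was 0.25, and the WT median does not depend on that array. All 11 genes called in WT mice were among the 14 called in KI mice, and Hspa5, Creld2 and Chac1 were called in KI mice and not in WT mice. For none of these 3 was the difference between the genotypes' changes itself called (adjusted p = 1 for each), and both comparisons share 1 estimate of spread. When arrays were scaled to 7 spike-in probes in place of the 75th percentile, the median of all genes moved to -0.78 in KI and -0.91 in WT mice. Only Xbp1, Trib3 and Derl3 then stayed higher, and 11 genes in KI and 19 in WT mice were called lower. Every direction given here is thus relative to the bulk of the transcripts on the array.

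**Figure D1:**
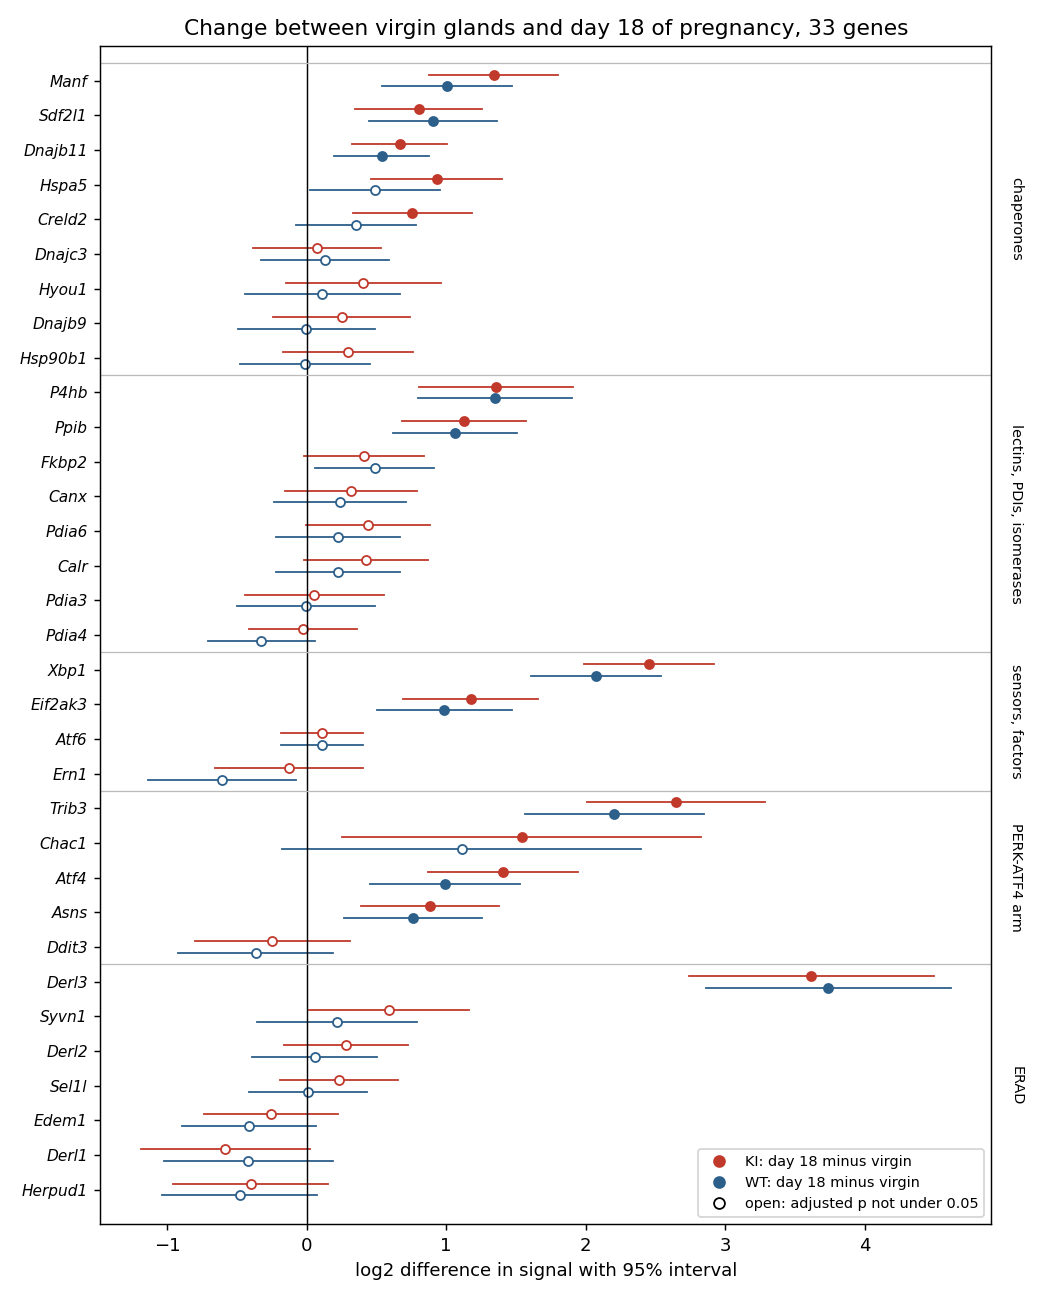
Log2 difference in signal (x axis) between day 18 of pregnancy and virgin glands for the 33 genes (rows, by role), in KI mice (red, upper) and WT mice (blue, lower), with 95% intervals from limma; filled points have an adjusted p under 0.05. Derl3, Trib3 and Xbp1 lie farthest to the right in both genotypes, and they alone stay above 0 with a call under spike-in scaling.

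Without the array of mouse 376, 17 genes were called in each genotype: 14 higher and 3 lower in KI mice, and 13 higher and 4 lower in WT mice. Of all genes, 29.6% were then called higher and 25.6% lower in KI mice, and 30.1% higher and 27.2% lower in WT mice. The genes that fell were Derl1, Herpud1 and Edem1 in both genotypes, and Ern1 in WT mice. Hspa5 and Fkbp2 rose in WT mice without that array, and Hyou1 replaced Chac1 among the rises in KI mice.

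Among the chaperones of the BiP and GRP94 system, 5 of 9 genes rose in KI mice and 3 of 9 in WT mice, while by spike-in scaling none of the 9 rose. By that scaling Dnajb11, Sdf2l1 and Creld2 turned negative in both genotypes and Hspa5 in WT mice. Dnajc3 was then called lower in both genotypes, and Hsp90b1, Hyou1, Dnajb9 and Creld2 were called lower in WT mice. Hspa5, which encodes BiP, read 5.33, 5.46, 5.76, 6.01 and 6.03 on the KI day 18 arrays. KI virgins ran from 3.84 through a median of 4.78 to 5.67. It read 5.28, 5.33, 5.67, 6.07 and 6.08 on the WT day 18 arrays, and WT virgins ran from 5.02 through 5.18 to 5.43. The groups overlap in both genotypes, and the WT virgins are the tightest of the 4. Hspa5 was 1.91-fold higher on day 18 in KI mice (log2 0.93 ± 0.23 SE, adjusted p = 0.00178). In WT mice the log2 difference was 0.49 ± 0.23 (adjusted p = 0.0849), and that value passed without mouse 376 (adjusted p = 0.0236). Its 2 other probes gave log2 0.94 and 0.78 in KI mice, and 0.20 each in WT mice.

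Manf, a secreted BiP cofactor, had the largest change of the group. It read 2.31, 2.36, 2.48, 2.55 and 2.87 on the KI day 18 arrays, while KI virgins ran from 0.32 through 1.11 to 2.15. On the WT day 18 arrays it read 2.23, 2.35, 2.54, 2.91 and 3.29, while WT virgins ran from 1.46 through 1.64 to 1.90. Neither pair of groups overlaps. Manf rose 2.53-fold in KI mice (adjusted p = 4.44e-05) and 2.01-fold in WT mice (adjusted p = 0.000908).

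Dnajb11 (ERdj3) is a BiP co-chaperone that works in a complex with Sdf2l1. Dnajb11 read 2.51, 2.57, 2.65, 2.71 and 2.85 on KI day 18 arrays, with KI virgins from 1.44 through 2.01 to 2.67. It read 2.58, 2.60, 2.67, 2.96 and 3.09 on WT day 18 arrays, with WT virgins from 2.10 through 2.21 to 2.40. The WT groups do not overlap, and in KI mice the highest virgin reaches into the day 18 range. The rise was 1.59-fold in KI mice (adjusted p = 0.00209) and 1.45-fold in WT mice (adjusted p = 0.0107). Sdf2l1 read 0.43, 0.47, 0.71, 0.85 and 0.90 on KI day 18 arrays, with KI virgins from -0.83 through -0.18 to 0.95. It read 0.89, 0.90, 0.97, 1.23 and 1.23 on WT day 18 arrays, with WT virgins from -0.36 through 0.07 to 0.48. Again the groups are apart in WT mice alone, and the KI overlap comes from 1 high virgin. Sdf2l1 rose 1.74-fold in KI mice (adjusted p = 0.00505) and 1.87-fold in WT mice (adjusted p = 0.00197).

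Creld2, an ER-resident protein used as a marker of ER stress, read 3.55, 3.62, 3.94, 4.10 and 4.10 on KI day 18 arrays, with KI virgins from 2.26 through 3.09 to 4.06. It read 3.64, 3.72, 3.84, 4.14 and 4.25 on WT day 18 arrays, with WT virgins from 3.39 through 3.58 to 3.76. Both pairs of groups overlap. Creld2 rose 1.69-fold in KI mice (adjusted p = 0.00474), and the WT difference was log2 0.35 ± 0.21 (adjusted p = 0.184). Hsp90b1 (GRP94) averaged 5.28 ± 0.22 in KI day 18 and 4.98 ± 0.61 in KI virgin glands, and 5.38 ± 0.21 in WT day 18 and 5.39 ± 0.19 in WT virgin glands (SD). Its WT difference of -0.01 has a 95% interval from -0.48 to 0.45. Hyou1, the nucleotide exchange factor of BiP, and the J-proteins Dnajb9 and Dnajc3 were not called, with log2 differences from 0.07 to 0.41 in KI mice and from -0.0026 to 0.13 in WT mice.

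**Figure D2:**
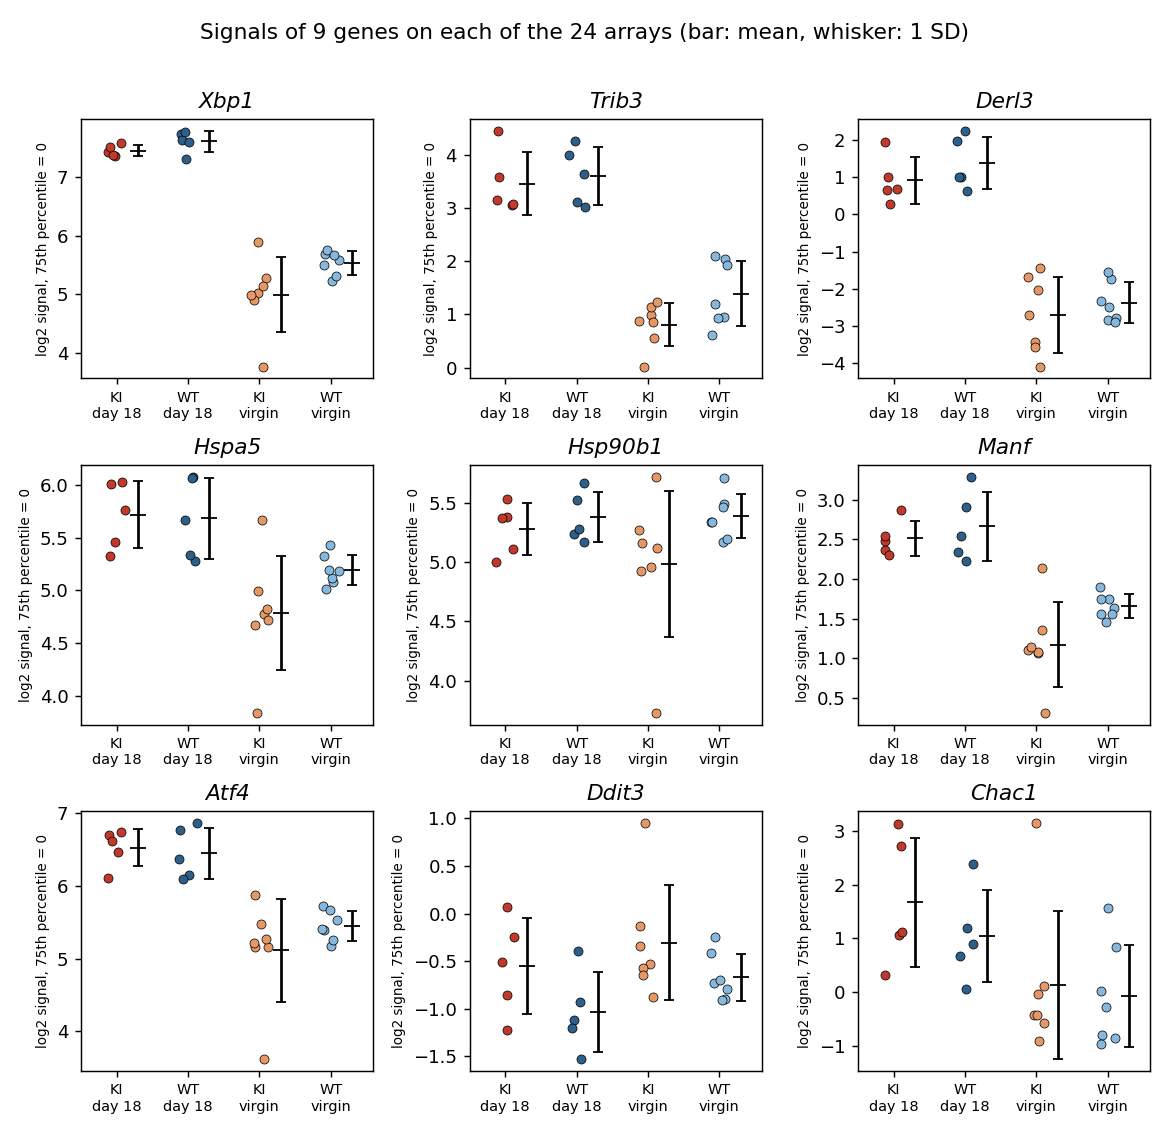
Log2 signal relative to the array's 75th percentile (y axis, each panel on its own scale) for 9 genes on every array, by group (x axis: KI day 18, WT day 18, KI virgin, WT virgin); points are mice, and the bar and whisker are the mean and 1 SD. Xbp1, Trib3, Derl3, Manf and Atf4 show no overlap between stages within a genotype, while Hspa5, Hsp90b1, Ddit3 and Chac1 overlap in both; by spike-in scaling only Xbp1, Trib3 and Derl3 of these were called higher.

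Of the lectin chaperones, disulfide isomerases and proline isomerases, 2 of 8 genes rose in each genotype, P4hb and Ppib. Of all genes, 22.9% rose in KI and 20.9% in WT mice. By spike-in scaling P4hb and Ppib kept a positive sign without a call. Pdia3 and Pdia4 were then called lower in both genotypes, and Calr, Canx and Pdia6 were called lower in WT mice. P4hb is protein disulfide isomerase itself and also the beta subunit of collagen prolyl hydroxylase. It read 3.77, 3.93, 4.14, 4.49 and 4.81 on KI day 18 arrays, with KI virgins from 1.46 through 3.11 to 3.53. It read 4.26, 4.34, 4.39, 4.75 and 5.15 on WT day 18 arrays, with WT virgins from 2.98 through 3.26 to 3.52. The stages are apart in both genotypes. P4hb rose 2.56-fold in KI mice (adjusted p = 0.000242) and 2.55-fold in WT mice (adjusted p = 0.000262). Ppib, cyclophilin B, read 4.44, 4.60, 4.66, 4.66 and 4.88 on KI day 18 arrays, with KI virgins from 2.37 through 3.65 to 4.25. It read 4.68, 4.72, 4.92, 4.99 and 5.21 on WT day 18 arrays, with WT virgins from 3.58 through 3.86 to 4.12. Here too the stages do not overlap, and Ppib rose 2.18-fold in KI mice (adjusted p = 0.000182) and 2.09-fold in WT mice (adjusted p = 0.000347).

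The glycoprotein chaperones Calr (calreticulin) and Canx (calnexin) and their partner isomerase Pdia3 were not called. Calr gave log2 0.43 in KI and 0.22 in WT mice, Canx 0.32 in KI and 0.24 in WT mice, and Pdia3 0.06 in KI and -0.002 in WT mice. A second Canx probe gave -0.18 in KI and -0.42 in WT mice, so its 2 probes point opposite ways. Pdia6 gave 0.44 in KI and 0.22 in WT mice, and Pdia4 gave -0.03 in KI and -0.32 in WT mice. The interval of the WT Pdia4 difference ran from -0.71 to 0.06. Fkbp2, a proline isomerase of the ER, gave 0.41 in KI mice (adjusted p = 0.114) and 0.49 in WT mice (adjusted p = 0.0627).

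Of the 4 sensors and factors, Xbp1 and Eif2ak3 rose in each genotype, and Ern1 and Atf6 were not called, whereas by spike-in scaling Eif2ak3 was not called and Ern1 and Atf6 were lower in both genotypes. Xbp1 read 7.36, 7.38, 7.42, 7.51 and 7.58 on KI day 18 arrays, with KI virgins from 3.77 through 5.03 to 5.89. It read 7.30, 7.61, 7.63, 7.74 and 7.77 on WT day 18 arrays, with WT virgins from 5.23 through 5.59 to 5.75. The day 18 groups are narrow, with SDs of 0.09 in KI and 0.18 in WT mice, and lie well clear of every virgin. Xbp1 rose 5.47-fold in KI mice (log2 2.45 ± 0.22 SE, adjusted p = 1.45e-08) and 4.21-fold in WT mice (log2 2.07 ± 0.22 SE, adjusted p = 1.74e-07). Within the 3 slides the KI differences were 2.88, 2.37 and 1.85 and the WT differences 2.41, 2.17 and 1.78. Its 2 other probes gave log2 2.39 and 2.37 in KI mice and 2.28 each in WT mice.

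Eif2ak3, the kinase PERK, read -0.04, 0.62, 0.62, 0.80 and 0.94 on KI day 18 arrays, with KI virgins from -1.67 through -0.47 to 0.20. It read 0.32, 0.40, 0.60, 0.75 and 1.14 on WT day 18 arrays, with WT virgins from -0.66 through -0.38 to 0.00. The WT stages are apart, and 1 KI day 18 mouse falls inside the KI virgin range. Eif2ak3 rose 2.26-fold in KI mice (adjusted p = 0.000286) and 1.98-fold in WT mice (adjusted p = 0.00152) by its brightest probe. The other probe gave log2 0.46 in KI mice (adjusted p = 0.26 over all probes), without a call, and 0.77 in WT mice (adjusted p = 0.0496 over all probes). Ern1, the kinase and nuclease IRE1 that splices Xbp1 mRNA, averaged 0.03 ± 0.18 in KI day 18 and 0.15 ± 0.51 in KI virgin glands, and 0.01 ± 0.13 in WT day 18 and 0.62 ± 0.59 in WT virgin glands (SD). Its WT difference was -0.60 (adjusted p = 0.0628), which passed without mouse 376 (adjusted p = 0.0412). A dimmer Ern1 probe gave -1.16 in WT mice (adjusted p = 0.00479 over all probes). Atf6 gave 0.11 in both genotypes, with an interval from -0.18 to 0.41 in each.

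In the PERK and ATF4 arm, 4 of 5 genes rose in KI mice and 3 of 5 in WT mice, and Ddit3 was not called, whereas by spike-in scaling Trib3 alone rose, Ddit3 was lower in both genotypes and Asns turned negative in WT mice. Atf4 is the transcription factor of the integrated stress response. It read 6.10, 6.46, 6.61, 6.69 and 6.74 on KI day 18 arrays, with KI virgins from 3.62 through 5.21 to 5.88. It read 6.10, 6.14, 6.36, 6.76 and 6.86 on WT day 18 arrays, with WT virgins from 5.17 through 5.41 to 5.73. No virgin reaches a day 18 mouse of its genotype. Atf4 rose 2.65-fold in KI mice (adjusted p = 0.000132) and 1.99-fold in WT mice (adjusted p = 0.00353).

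Trib3, an ATF4 target that feeds back on stress signalling, read 3.05, 3.07, 3.14, 3.57 and 4.45 on KI day 18 arrays, with KI virgins from 0.02 through 0.88 to 1.23. It read 3.01, 3.10, 3.64, 3.99 and 4.25 on WT day 18 arrays, with WT virgins from 0.61 through 1.20 to 2.09. The gap between stages is wide in both genotypes. Trib3 rose 6.26-fold in KI mice (log2 2.65 ± 0.31 SE, adjusted p = 4.37e-07) and 4.61-fold in WT mice (log2 2.20 ± 0.31 SE, adjusted p = 5.42e-06). Asns, asparagine synthetase, read 3.35, 3.73, 3.95, 4.09 and 4.26 on KI day 18 arrays, with KI virgins from 1.74 through 3.03 to 3.55. It read 3.77, 3.80, 3.89, 4.20 and 4.39 on WT day 18 arrays, with WT virgins from 2.89 through 3.27 to 3.56. Its stages are apart in WT mice and overlap in KI mice, where slide 3 alone gave a negative difference (-0.14, with 1 KI day 18 mouse). Asns rose 1.84-fold in KI mice (adjusted p = 0.00448) and 1.69-fold in WT mice (adjusted p = 0.0131) by its brightest probe. The other probe was not called in either genotype, at log2 0.25 in KI mice (adjusted p = 0.384 over all probes) and 0.54 in WT mice (adjusted p = 0.0537 over all probes), so the call of Asns depends on the probe.

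Chac1, a glutathione-degrading enzyme and ATF4 target, varied most from mouse to mouse. It read 0.33, 1.06, 1.11, 2.73 and 3.12 on KI day 18 arrays, with KI virgins from -0.91 through -0.42 to 3.15. It read 0.06, 0.66, 0.90, 1.20 and 2.39 on WT day 18 arrays, with WT virgins from -0.96 through -0.27 to 1.56. The highest KI value is a virgin, mouse 198. The KI rise of 2.91-fold just passed (adjusted p = 0.0492) and failed without mouse 376 (adjusted p = 0.0789). Without mouse 198 the log2 difference was 2.04 (adjusted p = 0.00238), and the WT difference was 1.11 (adjusted p = 0.162). Mouse 198 had a muscle marker mean of 7.97. KI day 18 mice 211 and 184, with Chac1 at 3.12 and 2.73, had muscle means of 6.34 and 5.10 and stay in the fit without mouse 198. WT day 18 mouse 206 read 2.39 with a muscle mean of -3.89. A relation of Chac1 to muscle in the sample was not tested.

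Ddit3 encodes CHOP, the factor linked to cell death under lasting ER stress. It read -1.22, -0.86, -0.51, -0.24 and 0.07 on KI day 18 arrays, with KI virgins from -0.87 through -0.53 to 0.95. It read -1.53, -1.20, -1.12, -0.93 and -0.39 on WT day 18 arrays, with WT virgins from -0.91 through -0.73 to -0.25. The groups overlap, and both differences were below 0, at -0.24 in KI mice (adjusted p = 0.497) and -0.36 in WT mice (adjusted p = 0.297). The 95% interval ran from -0.80 to 0.31 in KI mice and from -0.92 to 0.19 in WT mice, so the upper bounds lie below the changes of Atf4 and Trib3 in the same mice. Mouse 376 was the highest KI virgin, and without it the KI difference was -0.035. A second, dimmer probe gave -0.62 in KI mice (adjusted p = 0.0291 over all probes) and -0.38 in WT mice. These values include mouse 376, and the dimmer probe was not fitted without it.

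Of the 7 ERAD genes, Derl3 rose in both genotypes by either scaling, and the other 6 were not called in either genotype, although by spike-in scaling all 6 were lower in WT mice and 5 in KI mice, Syvn1 being the exception. Derl3 belongs to the derlin family of the retrotranslocation channel. It read 0.28, 0.64, 0.68, 1.01 and 1.94 on KI day 18 arrays, with KI virgins from -4.08 through -2.69 to -1.44. It read 0.63, 1.00, 1.00, 1.96 and 2.24 on WT day 18 arrays, with WT virgins from -2.88 through -2.48 to -1.54. Every day 18 mouse is above every virgin. Derl3 rose 12.2-fold in KI mice (log2 3.61 ± 0.42 SE, adjusted p = 4.81e-07) and 13.3-fold in WT mice (log2 3.74 ± 0.42 SE, adjusted p = 3.31e-07). Its paralogs Derl1 and Derl2 were not called. Derl1 gave -0.58 in KI and -0.42 in WT mice, and without mouse 376 it fell by 0.88 on the log2 scale in KI mice (adjusted p = 0.000131) and by 0.42 in WT mice (adjusted p = 0.033). A dimmer Derl1 probe, with all arrays, gave -0.18 in KI mice (adjusted p = 0.568 over all probes) and -0.52 in WT mice (adjusted p = 0.07 over all probes). Derl2 gave 0.28 in KI and 0.06 in WT mice.

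Herpud1, which recruits the ubiquitin ligase complex, gave -0.40 in KI mice (adjusted p = 0.246) and -0.48 in WT mice (adjusted p = 0.161). Without mouse 376 it fell by 0.67 in KI mice (adjusted p = 0.0012) and by 0.48 in WT mice (adjusted p = 0.011). Edem1, which trims mannose from glycoproteins bound for degradation, gave -0.25 in KI and -0.41 in WT mice. It fell by 0.48 in KI mice (adjusted p = 0.00702) and by 0.41 in WT mice (adjusted p = 0.0138) without that array. Its dimmer probe gave 0.37 in KI and 0.64 in WT mice (adjusted p = 0.0263 over all probes), so the direction of Edem1 depends on the probe. Syvn1 (HRD1, the ligase) gave 0.59 in KI and 0.22 in WT mice, and its partner Sel1l gave 0.23 in KI and 0.01 in WT mice.

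Set beside the promoter letters, 3 of the 9 genes with the ERSE letters were called higher in KI mice (Hspa5, Creld2 and Derl3) and 1 of 9 in WT mice (Derl3). Of the 20 genes whose window did not hold them, 10 were called higher in KI mice and 9 in WT mice. The median log2 difference was 0.44 in KI mice for the 9 and 0.54 for the 20, and 0.22 in WT mice for the 9 and 0.51 for the 20. These are counts within 1 chosen list and carry no test. The 2 genes with the ERSE-II letters went apart, Dnajb11 rising in both genotypes and Herpud1 rising in neither.

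**Figure D3:**
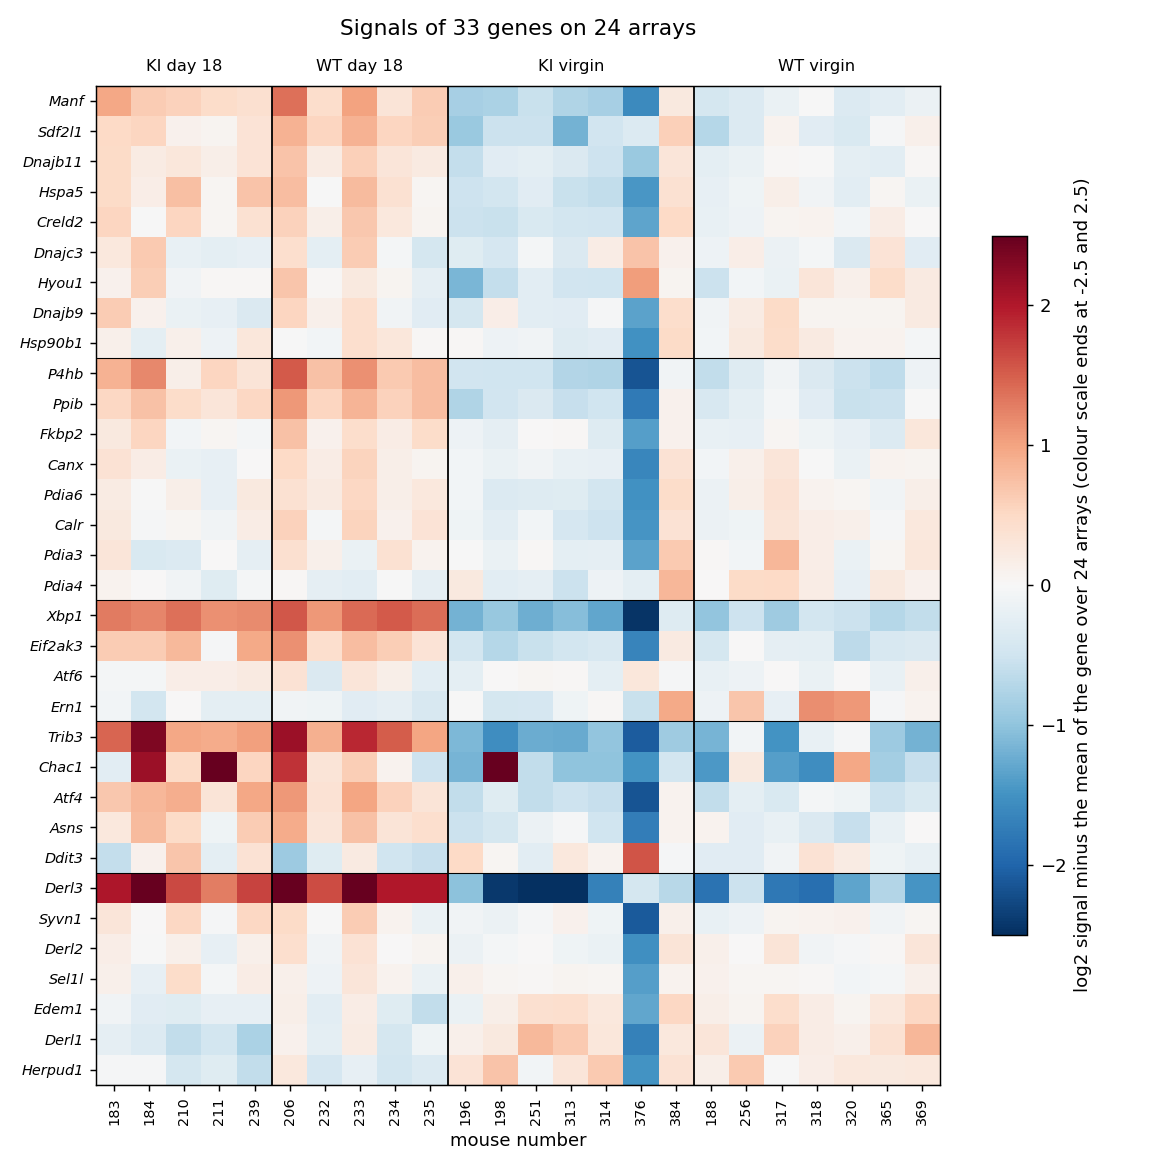
Log2 signal of the 33 genes (rows, by role) on the 24 arrays (columns, mouse numbers, grouped as KI day 18, WT day 18, KI virgin and WT virgin) minus each gene's mean over all arrays. The day 18 columns are red for Xbp1, Trib3 and Derl3, and the column of KI virgin mouse 376 is blue for most genes and red for Ddit3, Hyou1 and Dnajc3.

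The stages do not overlap for 7 of the 33 genes in KI mice and 11 in WT mice, all higher on day 18. Of all genes, 12.6% were higher without overlap in KI mice and 20.3% in WT mice. Within slides, all 11 called genes were positive on all 3 slides in WT mice, and 13 of 14 in KI mice, the exception being Asns. Slide 1 held 1 WT day 18 mouse and slide 3 held 1 KI day 18 mouse.

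The make-up of the tissue also differed between stages. All 6 milk protein genes were higher on day 18 in both genotypes, and their mean log2 signal ran from 8.32 to 8.80 on KI day 18 arrays and from -4.10 to -0.01 in KI virgins, and from 7.99 to 8.74 on WT day 18 arrays and from -4.90 to 3.87 in WT virgins. Of 10 luminal epithelial markers, 7 were higher in KI and 5 in WT mice, and their mean ran from 3.69 to 4.27 in KI day 18 and from -3.77 to 2.25 in KI virgin glands, and from 3.56 to 4.05 in WT day 18 and from 0.46 to 2.70 in WT virgin glands. All 7 fibroblast and all 7 macrophage markers were lower in both genotypes, and 6 of 8 adipocyte markers were lower in KI and 5 of 8 in WT mice. Of 7 basal epithelial markers, 6 were higher in KI and 3 in WT mice, and none of 7 muscle markers was called. Among 7 plasma cell markers, 3 were higher in each genotype (Jchain, Mzb1 and Pou2af1), and 2 in KI and 3 in WT mice were lower. The plasma cell mean ran from -2.73 to -0.85 in KI day 18 and from -2.54 to -1.08 in KI virgin glands, and from -2.28 to -1.39 in WT day 18 and from -2.39 to -1.59 in WT virgin glands. All genes of these marker lists passed the filter on dim probes. The part of these shifts in the rises of the 33 genes was not tested, and in whole glands fewer cells of a type and less RNA per cell cannot be told apart.

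A wider list of 99 genes of the same pathways, none of them among the 33, gave rises and falls by the same scaling. Of 97 measured, 43 were higher and 12 lower on day 18 in KI mice, and 31 were higher and 13 lower in WT mice. Of all genes, 22.9% were higher and 20.3% lower in KI mice, and 20.9% were higher and 20.9% lower in WT mice. The same shares apply to the parts of this list below. The median log2 of the 97 was 0.45 in KI and 0.28 in WT mice. Of 31 further folding factors, 13 were higher and 9 lower in KI mice, and 10 higher and 9 lower in WT mice. The largest rises in WT mice were Fkbp11 (24.3-fold in KI and 33.2-fold in WT mice), the peroxiredoxin Prdx4 (4.95-fold in KI and 5.3-fold in WT mice) and the translocon-associated Serp1 (3.98-fold in KI and 4.18-fold in WT mice). Fkbp11 was well above background on 4 of 7 KI and 6 of 7 WT virgin arrays. The largest falls in WT mice were Rcn1 (2.72-fold lower in KI and 3.19-fold lower in WT mice), Fkbp7 (3.12-fold lower in KI and 2.71-fold lower in WT mice) and Fkbp14 (2.34-fold lower in KI and 2.59-fold lower in WT mice). Fkbp14 is an isomerase of collagen folding, and the fibroblast markers were lower beside it, in a relation that was not tested.

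Of 21 further ERAD genes, 10 were higher in KI and 7 in WT mice and none was lower. They were led by Edem2 (2.73-fold in KI and 3.86-fold in WT mice), Rnf5 (1.9-fold in KI and 2.42-fold in WT mice) and the ubiquitin-conjugating enzyme Ube2j1 (2.31-fold in KI and 2.29-fold in WT mice). Of 14 further sensors and factors, 6 were higher in KI and 4 in WT mice and none was lower. Traf2, an adaptor that binds activated IRE1, was 2.85-fold higher in KI and 2.08-fold higher in WT mice, Creb3l1 1.9-fold in KI and 1.77-fold in WT mice, and the ATF6-cleaving protease Mbtps2 1.62-fold in KI and 1.49-fold in WT mice.

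Of 31 further targets of the integrated stress response, 14 were higher and 3 lower in KI mice, and 10 higher and 4 lower in WT mice. The amino acid transporter gene Slc7a5 rose 8.02-fold in KI and 9.26-fold in WT mice (well above background on 6 of 7 virgin arrays of each genotype), and the proline synthesis enzyme gene Aldh18a1 6.76-fold in KI and 6.6-fold in WT mice. Slc7a11, the cystine transporter, was not well above background on any virgin array and was so on 4 of 5 day 18 arrays in each genotype, so its rise is given as a bound against the dimmest well-measured probes, at least 1.63-fold in KI mice and at least 2.01-fold in WT mice. It passed the filter through the day 18 arrays alone, so its test supports nothing further. The serine synthesis enzyme gene Psph was 2.83-fold lower in KI and 2.56-fold lower in WT mice, and the cystathionine lyase gene Cth 2.97-fold lower in KI and 2.18-fold lower in WT mice. Stc2 was 2.1-fold lower in WT mice (adjusted p = 0.0297) and gave log2 -0.40 in KI mice (adjusted p = 0.439).

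Between the genotypes, none of the 33 genes differed by call at either stage. In virgins 29 of 33 were lower in KI mice, with a median log2 difference of -0.32, against -0.05 over all genes. Of all genes, 0% were called there, and 5 of the 33 and 802 of 22383 genes (3.58%) had an unadjusted limma p under 0.05. With array weights 0 of the 33 and 21 genes were called in virgins, and an unadjusted p under 0.05 was reached by 12 of the 33 and by 2074 of all genes (9.27%). Without mouse 376, 25 of 33 were lower and the median was -0.13. Under the other settings tried the median ran from -0.71 with arrays scaled to their median to -0.12 with quantile normalization. All 10 luminal markers were also lower in KI virgins, with a median of -1.26, and with mouse 198 left out 9 of 10 were lower with a median of -0.48. All 6 milk protein genes were lower there as well, and all 7 muscle markers were higher, with a median of 1.76. Whether these marker shifts bear on the 33 genes was not tested.

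The smallest p values in virgins belonged to Xbp1, Creld2 and Manf. Xbp1 ran from 3.77 through 5.03 to 5.89 in KI and from 5.23 through 5.59 to 5.75 in WT virgins, a difference of -0.54 with a 95% interval from -0.96 to -0.11 (adjusted p = 0.702). Creld2 differed by -0.46 (interval -0.85 to -0.07, adjusted p = 0.702) and Manf by -0.48 (interval -0.91 to -0.06, adjusted p = 0.702). Without mouse 376 these differences were -0.33, -0.32 and -0.34. KI virgins spread more widely than WT virgins in each, with the lowest KI value on mouse 376 and the highest on mouse 384. Within slides Xbp1 gave -0.80, -0.38 and -0.16, and Creld2 gave -0.78, -0.44 and 0.00.

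On day 18, 24 of 33 genes were lower in KI mice, with a median of -0.11 against 0.00 over all genes. Of all genes 0% were called, and an unadjusted p under 0.05 was reached by 0 of the 33 and by 441 genes (1.97%). With array weights 0 genes were called on day 18, and 0 of the 33 and 1165 genes (5.2%) had an unadjusted p under 0.05. Without mice 376, 198 and 184, 1 gene was called, none of the 33, and 3 of the 33 and 2149 genes (9.6%) had an unadjusted p under 0.05. The smallest p values belonged to Ddit3, Sdf2l1 and Derl1. Ddit3 was higher by 0.48 in KI mice, with an interval from -0.12 to 1.08. Sdf2l1 differed by -0.37 (interval -0.87 to 0.12), with the KI highest of 0.90 just above the WT lowest of 0.89. Derl1 differed by -0.39 (interval -1.04 to 0.26), while its dimmer probe gave 0.05, so the direction depends on the probe. For Xbp1, the day 18 difference was -0.16 with an interval from -0.66 to 0.34. All 7 muscle markers were higher in KI mice on day 18, with a median of 4.31 and no call. Their mean ran from -4.32 to 6.34 in KI and from -4.49 to 0.67 in WT mice. The median of the luminal markers was 0.02 and that of the adipocyte markers -0.47. Whether these marker differences bear on the 33 genes was not tested.

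**Figure D4:**
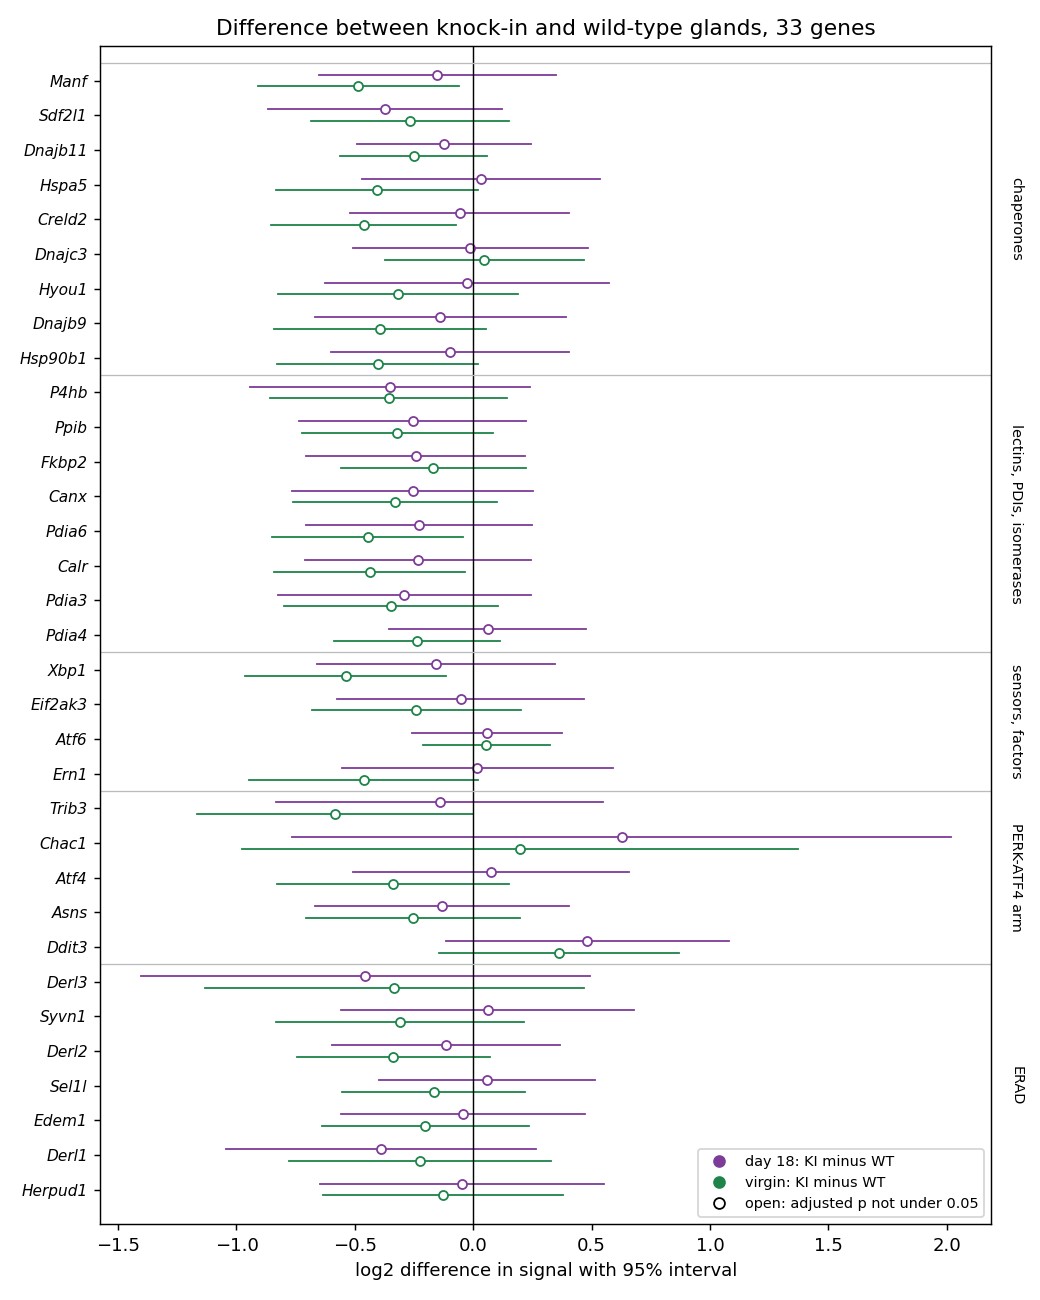
Log2 difference in signal (x axis) between KI and WT glands for the 33 genes (rows, by role) on day 18 of pregnancy (purple, upper) and in virgins (green, lower), with 95% intervals from limma; open points have an adjusted p of 0.05 or more. All points are open, and 29 of 33 virgin points lie left of 0.

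The signed change with stage in KI mice minus that in WT mice was above 0 for 28 of 33 genes, with a median of 0.20, against 0.05 over all genes. These 28 include genes with negative changes, such as Ern1 (-0.12 in KI and -0.60 in WT mice), so a value above 0 is not always a larger change. None of these differences was called by limma, the share over all genes was 0%, and an unadjusted p under 0.05 was reached by 0 of the 33 and 228 of all genes (1.02%). With array weights 0 genes were called, and an unadjusted p under 0.05 was reached by 2 of the 33 and by 1458 of all genes (6.51%). Without mouse 376 the count was 23 of 33 and the median 0.05. The smallest p values belonged to Creld2 (0.41, interval -0.20 to 1.01), Hspa5 (0.44, interval -0.22 to 1.10) and Ern1 (0.48, interval -0.27 to 1.23). Both changes share the same fitted spread, and intervals of this width do not show that the genotypes respond alike.

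The 33 genes also varied together among mice of 1 group. After each group mean was subtracted, the median correlation over the 528 pairs of genes was 0.539 over 24 arrays and 0.44 over the 21 arrays without mice 376, 198 and 184. Hspa5 and Creld2 had r = 0.906 and Dnajb11 and Manf had r = 0.907 over the 21 arrays. By role, the median over 21 arrays was 0.672 among the chaperones, 0.69 among the lectins and isomerases, 0.354 among the sensors, 0.344 among the ERAD genes and 0.129 in the PERK and ATF4 arm. For the ERAD genes it was 0.755 with all 24 arrays. All pairs share the same arrays and the same scaling, so these are descriptions without a p. Pairs of other genes were not computed, so the correlation is not shown to be particular to the 33 genes.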

How the data were processed

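Spots of 1 colour were extracted with Agilent Feature Extraction (version 12.0.3.2, per the submitters' processing notes). The deposited scanner files give processed signals as intensity, background-subtracted and detrended within the array, per the file headers. Values in the deposited matrix were found to be their log10, so the authors scaled no further there. The log2 scale was computed from the deposited intensity.

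Outlier spots were removed, spots of a probe averaged, and log2 intensity was set relative to each array's 75th percentile. Probes well above background on 80% of the arrays of at least 1 group were kept, and the brightest stood for its gene. limma 3.58.1 (R 4.3.3, data.table package version 1.17.8) fitted group means to 24 arrays, with Benjamini-Hochberg adjustment over 22383 genes. It was checked on simulated data with independent noise, in which 100 genes were altered at each size in the WT stage comparison. At a log2 change of 2, 83 of 100 were called, and at 1, 46 of 100, with 8 false calls. The real WT comparison called 9357 genes, a setting unlike the simulated one, so these shares need not hold for it.

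The members and gene lists were chosen with earlier results of these data known, and gene names follow a rule: all members, and of the other lists the 3 largest called rises and falls in WT mice. In 7 cases tRNA synthetase symbols in these lists were updated to RefSeq's. Clgn and Ern2 were not measured. Mouse numbers are distinct, so groups are unpaired. Alternatives cover scaling, background, filter, probes, slide, array weights, arrays that stand apart and each mouse. Values after ± are SE or SD as marked; the number of arrays limits the precision. Replicates are separate mice.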

Additional observations from a re-analysis of the deposited data

Results flagged for a closer look

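In groups of 5 or 7 mice, 17 of 132 gene and group combinations held a mouse far from the others by Dixon's criterion; chance flags about 1 in 20. Of these, 13 belong to KI virgin mouse 376, the array with the high negative controls. It was the lowest KI virgin for Hsp90b1 (3.73, next 4.93), Canx (2.76, next 4.19), P4hb (1.46, next 2.87), Fkbp2 (2.15, next 3.21), Atf4 (3.62, next 5.16), Asns (1.74, next 2.92), Herpud1 (0.37, next 1.79), Edem1 (-0.27, next 0.86), Derl1 (1.06, next 2.87), Derl2 (2.11, next 3.48), Syvn1 (2.05, next 4.01) and Sel1l (1.95, next 3.36). It was the highest for Ddit3 (0.95, next -0.13). KI virgin mouse 198 was the highest for Chac1 (3.15, next 0.12) and KI virgin mouse 384 for Ern1 (1.19, next 0.26). KI day 18 mouse 184 was the highest for Hyou1 (-2.37, next -2.87), and WT virgin mouse 256 for Herpud1 (2.51, next 2.13). The 12 genes with mouse 376 lowest include 6 of the 7 ERAD genes, all but Derl3.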

How the results depend on the processing

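Xbp1, Trib3 and Derl3 kept their calls in both genotypes under all 36 alternatives, and no member was called between genotypes or for the difference of changes under any. The count of called members was 14 in KI mice, against 6 with each array's median, 14 with spike-in probes (3 higher, 11 lower), 20 with array weights and 17 without mice 376, 198 and 184. It was 11 in WT mice, against 4 with each array's median, 22 with spike-in probes (3 higher, 19 lower), 17 with array weights, 18 with only the compared groups fitted, and 17 without mice 376, 198 and 184. Leaving out 1 mouse at a time gave 13 to 17 in KI and 11 to 17 in WT mice, the highest in both without mouse 376. Over all genes, the WT count was 9357, against 5321 with the median, 14807 with spike-ins and 14070 with array weights, and the KI count was 9658, against 5061 with the median and 12809 with array weights. Of called genes 53% were higher in KI and 50.1% in WT mice, and by spike-in scaling 10.5% in KI and 7.71% in WT mice. Chac1 in KI mice lost its call in 27 of 36 alternatives (adjusted p from 0.00238 to 0.348). Changes of sign in which the value was called on either side came from spike-in scaling, whose construction shifts every gene alike within an array. In KI mice they were Dnajb11 -0.17, Dnajc3 -0.76, Sdf2l1 -0.032, Creld2 -0.076, Pdia3 -0.78, Atf6 -0.72, Derl2 -0.55 and Sel1l -0.60. In WT mice they were Hyou1 -0.80, Dnajb11 -0.38, Dnajc3 -0.79, Sdf2l1 -0.012, Creld2 -0.57, Calr -0.69, Canx -0.68, Pdia6 -0.69, Atf6 -0.81, Asns -0.16, Derl2 -0.86, Syvn1 -0.70 and Sel1l -0.91. Values called on neither side also turned negative there, for Hsp90b1, Hyou1, Dnajb9, Calr, Canx, Pdia6, Fkbp2 and Syvn1 in KI mice and Hspa5 and Fkbp2 in WT mice. Other uncalled values changed sign under other settings, among them Edem1 with the mean of its probes (0.06 in KI and 0.12 in WT mice) and Pdia3 in KI mice without mouse 376 (-0.13). No paired analysis was possible because every mouse number occurs once. The probes used for the members were well above background on all arrays. On the array of mouse 376 that flag held for 57003 of 59305 spots, so it says little about dim members there. With 5 to 7 mice per group, modest changes may be missed.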
